A study of Macaca mulatta with 30 samples.

Results

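Microglia are the resident macrophages of the brain, and 9 genes that are widely used to recognise them were listed for description here: CX3CR1, P2RY12, CSF1R, AIF1, TMEM119, TREM2, C1QA, C1QB and C1QC. Members were found by matching the rhesus symbol of each gene to its Ensembl identifier and that identifier to a row of the count tables. A row was matched for 4 of the 9, among 32386 rows of the hippocampus table and 30246 of the lung table: P2RY12 (ENSMMUG00000001105), CSF1R (ENSMMUG00000011556), TREM2 (ENSMMUG00000013920) and C1QC (ENSMMUG00000020756). The other 5, CX3CR1, AIF1, TMEM119, C1QA and C1QB, were not matched to a row by their identifiers and were not analysed here. All 4 matched genes passed the filter on low counts in both tissues.

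Microglia arise from early myeloid precursors that enter the fetal brain and persist there, and they survive through signalling by CSF1R, the receptor of CSF1 and IL34. P2RY12 is a purinergic receptor with which resting microglia sense nucleotides released by nearby cells, and it is largely lacking in most other tissue macrophages. TREM2 is a lipid-sensing receptor that signals through the adaptor TYROBP, and C1QC is 1 of the chains of complement C1q, which tags material for clearance, including synapses during development. CSF1R, TREM2 and C1q chains are shared with macrophages outside the brain, whereas P2RY12 separates microglia from many of them.

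The measurements were RNA-seq read counts of fetal tissue from pregnant rhesus macaques given an intramuscular injection of saline or of a corticosteroid. The hippocampus was taken 5 days after treatment from 15 fetuses in 3 groups of 5, named CTL (saline, gestational age 130 to 135 days), BAC (132 to 133 days) and CEL (131 to 136 days). The lung came from 15 fetuses in 5 groups of 3, namely saline, the clinical drug Celestone (betamethasone-acetate with betamethasone-phosphate, 0.25 mg/kg) at 4 h and 5 days, and Beta-Ac (betamethasone-acetate alone, 0.125 mg/kg) at 6 h and 5 days, and 9 of these fetuses were also measured in hippocampus. The lung labels give a gestational age of 124 to 130 days for all lung groups, without saying whether this was at treatment or at delivery. The hippocampus labels of the 9 fetuses with both tissues give 131 to 136 days, taken here as age at delivery. These ages lie above the lung range, which is thus not the age of those fetuses at delivery. The submitters' labels disagree about the hippocampal drug groups. The library names read as CEL for Celestone and BAC for Beta-Ac, and the lung labels of the same animals match those names, while the treatment and dose fields of the hippocampus samples give the reverse. Groups here follow the library names, and with the fields taken instead, every difference given for CEL belongs to Beta-Ac at 0.125 mg/kg and every difference given for BAC belongs to the clinical drug.

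Libraries held 18280762 to 29301058 counted reads in hippocampus and 14073002 to 45033799 in lung. The defining genes of each tissue were checked: the summed level of 10 neuronal genes was 5385 to 8947 CPM (read counts scaled to library size with TMM factors) in hippocampus against 9.361 to 20.64 CPM in lung, and the surfactant and lung epithelium genes summed to 8076 to 19570 CPM in lung against 211.1 to 325.3 CPM in hippocampus. Of this last list, ABCA3 alone had 203.1 to 320.2 CPM in hippocampus, and its lung group means were 200.8 to 383.7 CPM. One hippocampus library stood apart. CTL212 had a mean correlation of 0.9478 with the other libraries of its tissue against 0.9593 to 0.9734 for the rest, and the choroid plexus and ependyma genes that had a row summed to 1244 CPM in it against 27.43 to 99.66 CPM in the other 14. It held 1017 CPM of meningeal genes, where the other 14 held 56.33 to 619.4. Hippocampus libraries came from 4 sequencing runs, and the runs were unevenly spread over the groups. Both run1630 and run0164 held all 3 groups with 1 CTL library each, CTL113 in run1630 and CTL212 in run0164. The other 3 CTL libraries were in runs without any treated animal.

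A gene was called when its fold change was at least 1.5, its p was below 0.05 and its adjusted p was below 0.1 in edgeR's quasi-likelihood test over all genes of the tissue. The first question was whether microglia genes differed in the fetal hippocampus 5 days after treatment. P2RY12 was 1.81-fold higher and C1QC 1.65-fold higher in CEL than in CTL animals, and both were called, whereas CSF1R and TREM2 were not. No member was called in BAC animals. The 2 calls among 4 members stand beside 7.86% of all 17390 genes tested that were called in CEL against CTL, 435 higher and 931 lower. Since bulk tissue was sequenced, a change in the number of microglia and a change in the RNA of each cell cannot be told apart in any value given here.

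P2RY12, the nucleotide receptor, measured 42.6, 24.0, 71.9, 34.3 and 33.1 CPM in the 5 CTL libraries, 56.6, 63.3, 57.6, 40.1 and 36.2 CPM in BAC, and 76.4, 98.4, 77.6, 48.0 and 72.0 CPM in CEL. Of the CTL libraries only CTL113, at 71.9 CPM, reached the levels of the CEL group, and the lowest CEL library, CEL238, lay above the other 4. The means were 41.19 ± 18.37 CPM in CTL, 50.74 ± 11.88 in BAC and 74.46 ± 17.98 in CEL (SD, n = 5). The log2 difference of CEL from CTL was 0.85 (SE 0.26, 95% interval 0.30 to 1.4, edgeR adjusted p = 0.0431).

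C1QC, the complement chain, measured 11.8, 11.6, 16.3, 9.64 and 15.0 CPM in CTL, 14.05, 18.7, 10.7, 22.4 and 12.4 CPM in BAC, and 21.5, 21.2, 19.2, 17.2 and 27.1 CPM in CEL. Every CEL library lay above every CTL library, as was the case for 5.07% of all genes tested. The BAC libraries spread over both groups. The means were 12.86 ± 2.72 CPM in CTL, 15.66 ± 4.78 in BAC and 21.23 ± 3.71 in CEL (SD, n = 5), and the log2 difference of CEL from CTL was 0.72 (SE 0.20, 95% interval 0.29 to 1.15, edgeR adjusted p = 0.0322).

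CSF1R, the growth factor receptor, measured 37.1, 22.2, 40.5, 27.8 and 30.5 CPM in CTL, 38.5, 19.7, 18.8, 39.7 and 30.9 CPM in BAC, and 31.5, 32.8, 32.0, 23.0 and 44.3 CPM in CEL. The 3 groups covered the same range. Its log2 difference of CEL from CTL was 0.05 (SE 0.23, edgeR adjusted p = 0.907), with a 95% interval of -0.44 to 0.54, which lies within the fold required for a call in either direction.

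TREM2, the lipid receptor, was a low-count gene with 57 to 210 reads per hippocampus library. It measured 5.41, 3.73, 6.34, 4.48 and 4.84 CPM in CTL, 3.79, 3.96, 2.64, 8.11 and 3.73 CPM in BAC, and 3.88, 4.43, 3.73, 3.98 and 6.87 CPM in CEL. One library of each treated group, BAC235 and CEL245, stood above the other 4 of its group. The log2 difference of CEL from CTL was -0.12 (SE 0.27, 95% interval -0.69 to 0.46, edgeR adjusted p = 0.802).

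**Figure D1:**
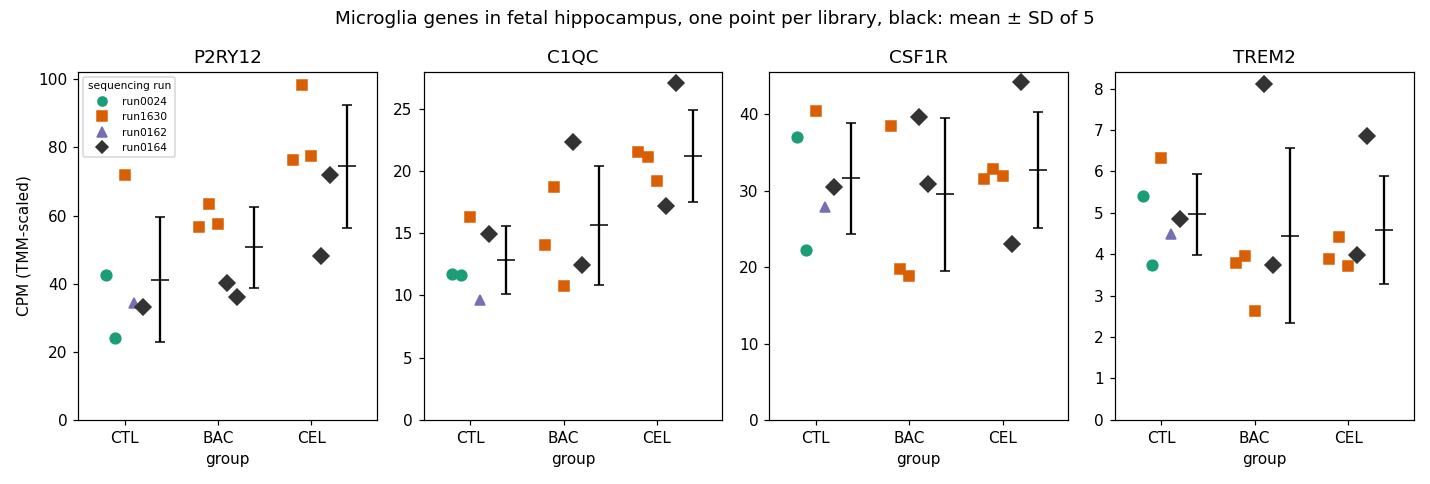
Level of the 4 microglia genes in each hippocampus library in CPM (vertical axes, from 0), by group, with the sequencing run as colour and symbol and the mean ± SD of 5 libraries in black. P2RY12 and C1QC had means of 74.46 and 21.23 CPM in CEL against 41.19 and 12.86 CPM in CTL, and within each group the P2RY12 points of run1630 lay above all others.

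The sequencing run moved with the P2RY12 level. The 7 libraries of run1630 measured 56.6 to 98.4 CPM, the 5 of run0164 33.1 to 72.0 CPM, the 2 of run0024 24.0 and 42.6 CPM and the 1 of run0162 34.3 CPM. In run1630 the CTL library had 71.9 CPM of P2RY12 against a mean of 59.2 in BAC and 84.1 in CEL. In run0164 the CTL library had 33.1 CPM against means of 38.1 in BAC and 59.97 in CEL. The runs also follow the prefix of the animal numbers, so run and animal series cannot be told apart.

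Within both runs, every CEL library lay above the CTL library of its own run in P2RY12 and in C1QC, which held for 19% of all genes tested. For C1QC the CTL libraries had 16.3 and 15.0 CPM in run1630 and run0164, against means of 20.6 and 22.1 CPM in CEL. With the run as a term of the fit, neither gene passed: the log2 difference was 0.51 for P2RY12 (SE 0.22, edgeR adjusted p = 0.178) and 0.45 for C1QC (SE 0.25, edgeR adjusted p = 0.287). That fit called 5.51% of all genes, 137 higher and 821 lower. When the fit was limited to the 12 libraries of these 2 runs, the differences were 0.51 (edgeR adjusted p = 0.396) and 0.46 (edgeR adjusted p = 0.359). The calls for P2RY12 and C1QC therefore rest on comparing CEL with CTL libraries of other runs as well. Each shared run held only 1 CTL library, which in run0164 was CTL212, the library rich in choroid plexus genes. Without CTL212 and with no run term, both calls held, at log2 differences of 0.79 (edgeR adjusted p = 0.0745) and 0.78 (edgeR adjusted p = 0.0322). The fits with a run term or on the 2 shared runs were not repeated without CTL212.

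For BAC against CTL, the log2 differences were 0.30 for P2RY12 (95% interval -0.25 to 0.85, edgeR adjusted p = 0.672), 0.28 for C1QC (-0.14 to 0.71, adjusted p = 0.589), -0.10 for CSF1R (-0.59 to 0.39, adjusted p = 0.896) and -0.16 for TREM2 (-0.73 to 0.42, adjusted p = 0.858). With the run in the fit P2RY12 turned to -0.061 (edgeR adjusted p = 0.930) and C1QC had 0.0068 (edgeR adjusted p = 0.994), and in run1630 and run0164 alone P2RY12 had -0.033 (edgeR adjusted p = 0.983). No gene of the whole table was called in this comparison by edgeR (0%), although 2133 genes had an unadjusted p below 0.05, and DESeq2 called 149. The 2 drug groups were also set against each other, which is the comparison of clinical drug with Beta-Ac at the same time point. The log2 difference of CEL from BAC was 0.55 for P2RY12 (95% interval 0.01 to 1.1, edgeR adjusted p = 0.365) and 0.44 for C1QC (0.01 to 0.86, edgeR adjusted p = 0.356), and neither passed. CSF1R and TREM2 had log2 differences of 0.15 and 0.04. Here too edgeR called 0% of genes, with 2346 at an unadjusted p below 0.05 and 186 called by DESeq2. A difference between the drugs in these genes was thus not shown, and the intervals for P2RY12 and C1QC reach from almost 0 to 1.1 and 0.86 on the log2 scale.

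**Figure D2:**
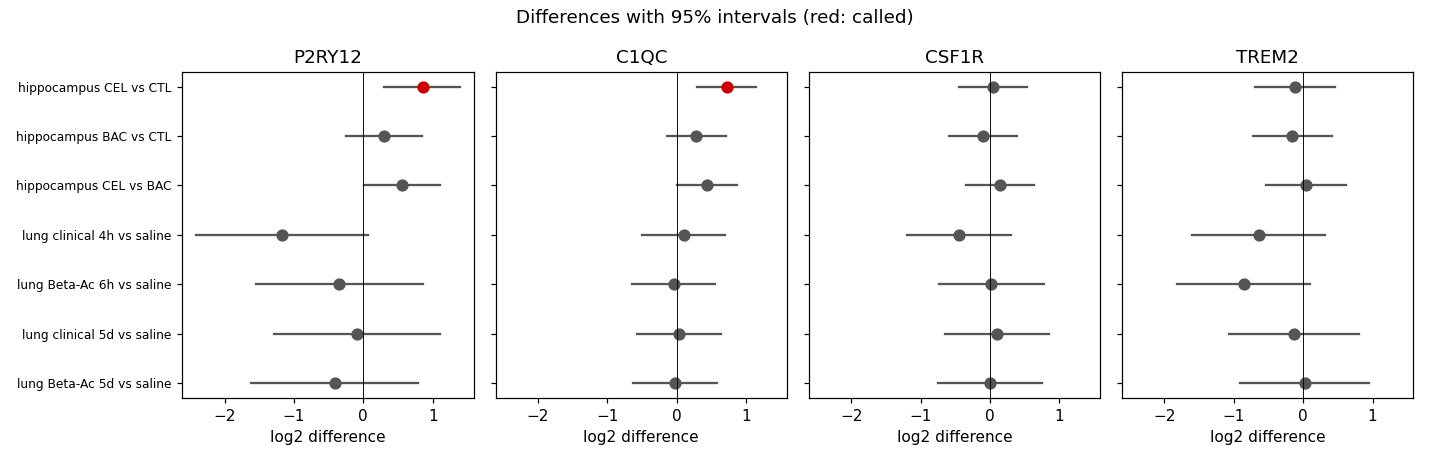
Log2 difference (horizontal axis) with its 95% interval for each member in the 3 hippocampus and 4 lung comparisons, red where called. Only the CEL against CTL values of P2RY12 (0.85) and C1QC (0.72) were called.

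Across the 15 hippocampus libraries the 4 genes did not move as a single unit. Pearson's r of log2 CPM was 0.74 for CSF1R with TREM2, 0.63 for P2RY12 with C1QC, 0.49 for TREM2 with C1QC, 0.42 for CSF1R with C1QC, 0.25 for P2RY12 with CSF1R and 0.01 for P2RY12 with TREM2. With the group means subtracted, r was 0.81 for TREM2 with C1QC and 0.28 for P2RY12 with C1QC. These are descriptions over libraries that share groups and runs. The reads of P2RY12 per read of CSF1R in the same library ran from 1.08 to 1.77 in CTL (median 1.15), from 1.01 to 3.22 in BAC (median 1.47) and from 1.62 to 3.0 in CEL (median 2.42). For C1QC per CSF1R the ranges were 0.317 to 0.523 in CTL, 0.365 to 0.95 in BAC and 0.600 to 0.747 in CEL. The C1QC level alone already separated CEL from CTL, so this ratio is no separate result.

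P2RY12 lies inside MED12L in the RefSeq annotation of another rhesus assembly (T2T-MMU8v2.0), where P2RY13, a related purinergic receptor, is its neighbour. It is not stated whether reads were counted by strand, so reads of the overlapping genes could be shared. MED12L, a subunit of the Mediator kinase module, had 45.6 ± 14.8 CPM in CTL and 43.9 ± 11.1 CPM in CEL (SD, n = 5) and a log2 difference of -0.05 (edgeR adjusted p = 0.912). C1QC stands between C1QA and C1QB there, neither of which was matched to a row.

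Other microglia genes were taken from lists of 24 core microglia genes, ligands and partners, myeloid transcription factors and macrophage states. Of the 19 core genes tested, 5 were higher in CEL than in CTL and 1 was lower, beside 7.86% of all genes called in either direction. The median log2 difference of the core genes was 0.42 against -0.02 over all genes. The 5 were GPR34, a lysophospholipid receptor on microglia (0.98, SE 0.24, edgeR adjusted p = 0.0196), TLR7, an endosomal RNA sensor (0.91, adjusted p = 0.0573), P2RY13 (0.80, adjusted p = 0.0383), HAVCR2, an inhibitory receptor (0.77, adjusted p = 0.0270), and SELPLG, a selectin ligand (0.66, adjusted p = 0.0971). GPR34 measured 9.96, 7.47, 17.8, 10.8 and 10.6 CPM in CTL and 18.7, 24.4, 23.4, 14.5 and 30.9 CPM in CEL, with CTL113 again the highest control. Of the 19 core genes tested, 15 had a positive log2 difference, as had 48.1% of all genes tested. Among the core genes not called, SALL1, LAPTM5 and BHLHE41 had log2 differences of 0.44, 0.55 and 0.44 that stayed under the fold threshold. With the run in the fit none of the 5 higher genes passed, while the 1 lower gene was called again. The log2 differences of the 5 higher genes in that fit were 0.67 for GPR34 (edgeR adjusted p = 0.172), 0.61 for TLR7, 0.68 for P2RY13, 0.47 for HAVCR2 and 0.29 for SELPLG. The median of the core list was 0.13 in that fit, against -0.012 over all genes. Without CTL212, 5 core genes were higher and none was lower. SELPLG was not among those 5 (0.61, edgeR adjusted p = 0.155).

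No gene among the 13 tested ligands and partners was called in CEL against CTL. TYROBP, the signalling partner of TREM2, measured 1.91 to 3.24 CPM in CTL and 1.36 to 3.51 CPM in CEL (log2 difference -0.17, edgeR adjusted p = 0.777). The CSF1R ligands CSF1 and IL34 had log2 differences of 0.08 (edgeR adjusted p = 0.862) and 0.23 (edgeR adjusted p = 0.553). CD55, a complement inhibitor, had the smallest p of that list (-0.47, edgeR adjusted p = 0.0525) and stayed below the fold threshold. CX3CL1, the ligand of CX3CR1, was not matched and was not analysed here. None of 13 myeloid transcription factors was called: SPI1, which specifies the myeloid lineage, had 0.33 (edgeR adjusted p = 0.295), and IRF8 0.48 (edgeR adjusted p = 0.0764) with a fold below 1.5. Among 9 tested inflammatory genes, TLR4, the endotoxin receptor, was the 1 called gene (0.75, edgeR adjusted p = 0.0342), and it was not called with the run in the fit (0.44, edgeR adjusted p = 0.296).

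Phagocytic and lysosomal genes went the other way where they passed. Of 17 tested, 3 were lower in CEL and none was higher, with a median of -0.25 (-0.40 with the run in the fit). The 3 were CD36, a fatty acid receptor (-1.21, edgeR adjusted p = 0.0237), NPC2, a lysosomal cholesterol carrier (-1.09, edgeR adjusted p = 0.0287), and LAMP2, a lysosomal membrane protein (-0.65, edgeR adjusted p = 0.0180). CD68, the macrophage lysosome marker, had 0.05 (edgeR adjusted p = 0.900). CD63, an endosomal membrane protein, was the 1 lower gene among 10 tested genes of the disease-associated and proliferative region microglia list (-0.86, edgeR adjusted p = 0.0154), and APOE of the same list had 0.01. NPC2, LAMP2 and CD63 were also called with the run in the fit, at log2 differences of -1.42, -0.79 and -0.99. Of all genes called in that fit, 821 were lower and 137 higher, against 931 lower and 435 higher without the run term. These 3 genes are expressed by most cell types. CD36 was not called in that fit (-0.66, edgeR adjusted p = 0.287). Without CTL212, NPC2 and CD63 were called at -0.64 and -0.69, while LAMP2 had -0.53 and missed the fold threshold.

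**Figure D3:**
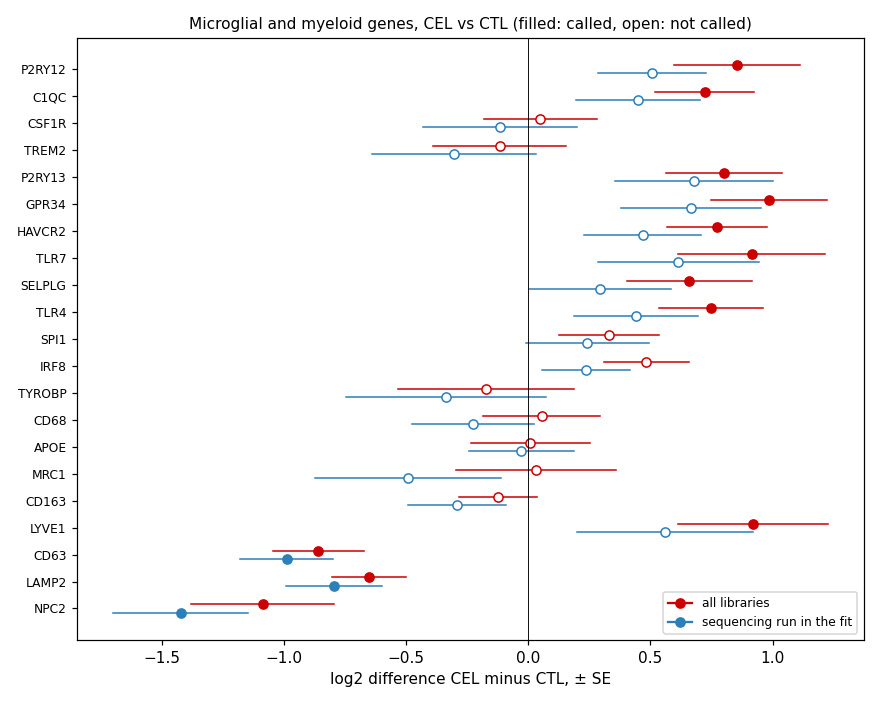
Log2 difference of CEL from CTL ± SE (horizontal axis) for 21 microglial and myeloid genes, over all 15 libraries (red) and with the sequencing run in the fit (blue), filled where called. P2RY12, C1QC, P2RY13 and GPR34 were called only without the run term, and CD63, LAMP2 and NPC2 in both fits.

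Markers of other macrophages were examined because several members are shared with them. Of 9 tested border and perivascular macrophage genes, LYVE1 was higher in CEL (0.92, edgeR adjusted p = 0.0598), and it was not called with the run in the fit (0.56, edgeR adjusted p = 0.349). MRC1 and CD163 had log2 differences of 0.03 (edgeR adjusted p = 0.962) and -0.12 (edgeR adjusted p = 0.633). With the run in the fit 1 gene of this list was called lower, and the list median was -0.46 against -0.12 without the run term. The summed level of that list was 88.25 to 159.7 CPM in CTL, 64.5 to 116.2 in BAC and 80.17 to 123.1 in CEL. Among monocyte and neutrophil genes LYZ was higher (0.71, edgeR adjusted p = 0.0818), as was CD52 on the alveolar macrophage list (1.05, edgeR adjusted p = 0.0620), and neither was called with the run in the fit. Without CTL212, LYZ was not called (0.71, edgeR adjusted p = 0.110). None of 4 tested lymphocyte or 5 tested red blood cell genes was called, and LCK had a log2 difference of 0.85 (edgeR adjusted p = 0.264) and SLC4A1 0.86 (edgeR adjusted p = 0.517).

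Genes of other cell types in the dissected tissue were also called. Of 7 tested astrocyte genes AQP4, the water channel, was higher in CEL (0.93, edgeR adjusted p = 0.0225), and it was also called with the run in the fit (0.77, edgeR adjusted p = 0.0968). The median log2 difference of the astrocyte list was 0.44, beside 0.42 for the core microglia genes, and 0.24 with the run in the fit. The part of astrocytes in the microglia gene differences was not tested. None of 10 neuronal, 7 oligodendrocyte, 9 endothelial and pericyte, 9 glucocorticoid target, 5 antigen presentation or 3 surfactant epithelium genes was called, with FKBP5, a direct glucocorticoid receptor target, at -0.33 (edgeR adjusted p = 0.388). The smallest p-values of those 6 lists belonged to NEUROD2 (0.46), CSPG4 (0.33), FLT1 (0.30), PER1 (-0.41), CTSH (-0.74) and ABCA3 (-0.42), given as log2 differences. CTSH was lower with the run in the fit (-1.49, edgeR adjusted p = 0.0531), as NEUROD2 was higher (0.68, edgeR adjusted p = 0.0531). In that fit 2 of the 9 endothelial and pericyte genes were also called lower, with a list median of -0.34. Without CTL212 and with no run term, CTSH had -0.19 (edgeR adjusted p = 0.722) and NEUROD2 0.42 (edgeR adjusted p = 0.0927), and neither was called. Of 5 tested choroid plexus genes 3 were lower in CEL (CLIC6 at -8.17, FOLR1 at -6.37 and OTX2 at -5.00 on the log2 scale), and without CTL212 none of these 3 was called. Without that library 1 other gene of the list was called higher, and the list median was 0.715 against -5.00 with all libraries. Of 7 tested meningeal genes 4 were lower (COL1A1 at -2.27, COL1A2 at -2.11, COL3A1 at -1.89 and DCN at -1.17), and without CTL212 only DCN was (-0.98, edgeR adjusted p = 0.0934). Summed meningeal levels were 103.4 to 1017 CPM in CTL and 56.33 to 240.6 CPM in CEL. The part of choroid plexus and meninges in the P2RY12 and C1QC differences was not tested, beyond both calls holding without CTL212.

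The genes whose level most resembled the mean log2 CPM of the 4 members over the 15 hippocampus libraries were CD53 (r = 0.917), TMIGD3 (0.868), TREML1 (0.859), ENTPD1 (0.828), BIN2 (0.828), FPR1 (0.827), TMEM273 (0.818), GPR34 (0.815), ITGAL (0.798) and EVI2B (0.796). With group means subtracted, r was 0.885 for CD53 and 0.770 for GPR34. CD53 is a tetraspanin of leukocytes and ITGAL a leukocyte integrin chain. TREML1 is the neighbour of TREM2 in the RefSeq table. Taken singly, P2RY12 was most like RGS18 (0.920), C1QC most like CD83 (0.927), CSF1R most like PZP (0.899) and TREM2 most like its partner TYROBP (0.848). All of these are descriptions over 15 libraries that share groups, runs and dissection.

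The lung served as a contrast, since its macrophages are not microglia. In the 9 fetuses with both tissues, P2RY12 was 26.7-fold higher in hippocampus than in lung and TREM2 2.59-fold higher, while CSF1R and C1QC were not called. Over all libraries, P2RY12 was 24.0 to 98.4 CPM in hippocampus and 0.150 to 3.57 CPM in lung, and TREM2 was 2.64 to 8.11 CPM against 0.501 to 2.51 CPM. For both genes every hippocampus library lay above every lung library, as did 26.4% of all 15173 genes tested. The log2 difference was 4.74 for P2RY12 (SE 0.18, 95% interval 4.35 to 5.13, edgeR adjusted p = 2.13e-11) and 1.37 for TREM2 (SE 0.14, 1.06 to 1.68, edgeR adjusted p = 8.87e-07). Since 73.7% of genes were called between the tissues, 2 calls in 4 members are no excess.

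CSF1R had 18.8 to 44.3 CPM in hippocampus and 10.7 to 54.0 CPM in lung (log2 difference -0.21, 95% interval -0.47 to 0.06, edgeR adjusted p = 0.129). C1QC had 9.64 to 27.1 CPM against 11.6 to 25.0 CPM (0.03, -0.33 to 0.38, edgeR adjusted p = 0.878). The P2RY12 reads per CSF1R read were 1.01 to 3.22 in hippocampus and 0.0140 to 0.0873 in lung. The 2 tables were made with different aligners according to the labels, and not on the same annotation, which shared 20572 identifiers, so a fixed offset between tissues in a single gene could come from its gene model. In the same comparison GPR34 and SELPLG were higher in hippocampus (1.51 and 1.75 on the log2 scale), as were IL34 (4.84) and SPI1 (0.85), and TYROBP, CD68, IRF8 and MRC1 were lower (-1.83, -1.76, -1.40 and -1.77), each with an edgeR adjusted p below that of SPI1 (0.000139) or equal to it.

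**Figure D4:**
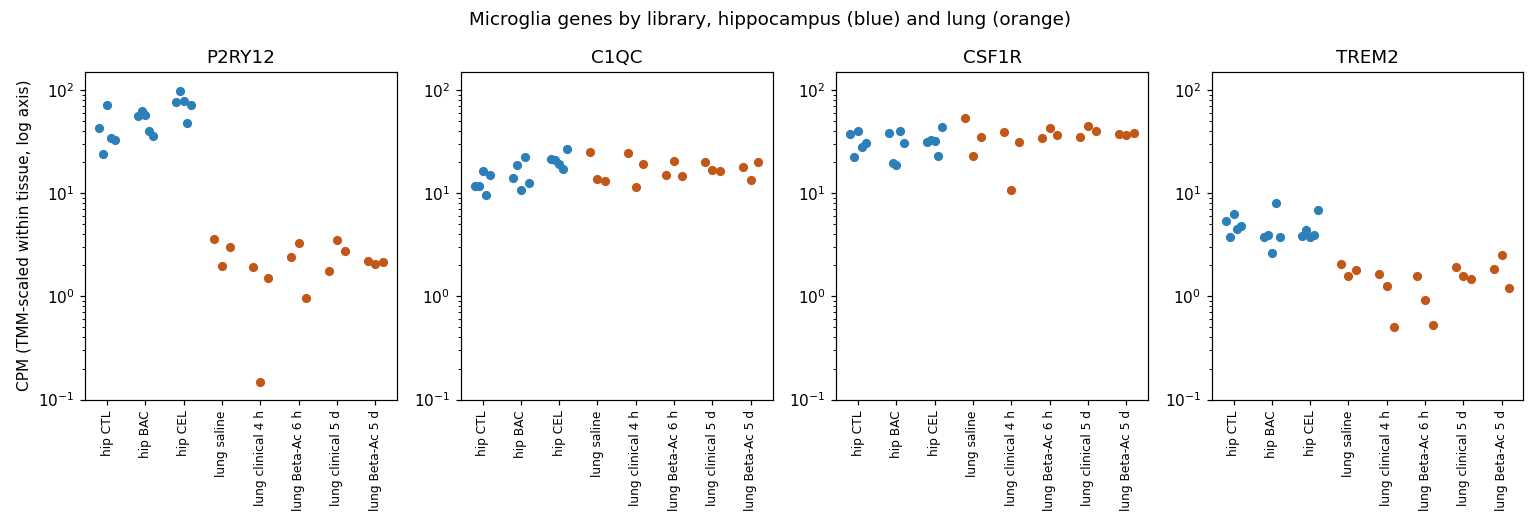
CPM of the 4 members (vertical axes, log scale) in each library of the 3 hippocampus groups (blue) and 5 lung groups (orange). P2RY12 had 24.0 to 98.4 CPM in hippocampus and at most 3.57 CPM in lung, and the CSF1R and C1QC levels of the tissues overlapped.

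No member was called in any lung comparison. The clinical drug at 4 h called 7.40% of 17644 genes, Beta-Ac at 6 h 0.442%, the clinical drug at 5 days 0% (775 genes had an unadjusted p below 0.05, and DESeq2 called 16) and Beta-Ac at 5 days 0.00567%. P2RY12 in lung was 3.57, 1.99 and 3.01 CPM in saline and 1.95, 0.150 and 1.502 CPM at 4 h after the clinical drug. These values rest on few reads, 29 to 60 per saline library and 2 to 84 at 4 h, and the log2 difference of -1.18 did not pass (SE 0.58, 95% interval -2.42 to 0.06, lung q = 0.203 by edgeR). The library with 2 P2RY12 reads, replicate 2 of that group, was also lowest of all lung libraries in CSF1R, at 10.7 CPM. At 5 days, P2RY12 was 1.75, 3.51 and 2.76 CPM after the clinical drug (log2 difference -0.09, edgeR q = 0.938) and 2.19, 2.08 and 2.17 CPM after Beta-Ac (-0.41, edgeR q = 0.894). TREM2 had its largest lung difference at 6 h after Beta-Ac (-0.86, SE 0.45, edgeR q = 0.367), from 11 to 31 reads per library. C1QC was at 11.6 to 25.0 CPM in all 5 lung groups, with log2 differences between -0.04 and 0.10. For CSF1R the lung differences ran from -0.45 to 0.10.

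Whether the 5-day drug effect differed between the tissues was tested in the 9 fetuses with both, with the animal in the fit. For the clinical drug the P2RY12 effect in hippocampus exceeded that in lung by 1.05 on the log2 scale (SE 0.28, 95% interval 0.42 to 1.67, edgeR adjusted p = 0.0851), and it was called, as were 4.95% of genes. The same difference was 0.57 for C1QC (SE 0.39, edgeR adjusted p = 0.455), -0.18 for CSF1R (edgeR adjusted p = 0.786) and -0.20 for TREM2 (edgeR adjusted p = 0.813). The call for P2RY12 was lost when any of 6 of the 9 animals was left out (CTL092, CTL101, BAC136, CEL115, CEL120 or CEL126), with the value over all 9 omissions between 0.83 and 1.40 and the edgeR adjusted p as high as 0.273. It was also lost without the animal term (0.96, edgeR adjusted p = 0.260). In these 9 animals all treated hippocampus libraries were from run1630 and 2 of the 3 saline libraries were not, so that drug and run cannot be told apart here. For Beta-Ac no member was called and 0% of genes were, with 2271 at an unadjusted p below 0.05. The P2RY12 difference was 0.84 (95% interval 0.21 to 1.47, edgeR adjusted p = 0.227), it was called without the animal of CTL113 (1.19, edgeR adjusted p = 0.0661), and C1QC, CSF1R and TREM2 had 0.09, -0.49 and -0.54.

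Gestational age at delivery ran from 130 to 136 days and was examined as a slope within groups in the hippocampus. P2RY12 had a slope of 0.14 per day on the log2 scale (SE 0.06, edgeR adjusted p = 0.285), and the slopes of CSF1R, TREM2 and C1QC were 0.02, -0.03 and -0.02 per day. None was called, and neither was any other gene (0%, with 2638 at an unadjusted p below 0.05). With age as a covariate the CEL against CTL differences were 0.87 for P2RY12 (edgeR adjusted p = 0.0249) and 0.73 for C1QC (edgeR adjusted p = 0.0338).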

How the data were processed

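Total RNA was extracted with Trizol per the labels, whereas the study's methods name an RNeasy kit for lung, and was sequenced, for hippocampus after poly(A) selection. The authors aligned reads to the rhesus build MMUL1.0 with Bowtie 2 according to their methods, which do not name the tissue at that step (the labels list Bowtie 1.2.1.1 for lung and Bowtie2 for hippocampus), and deposited raw counts per Ensembl gene from featureCounts (1.5.1 for lung, per the labels). The strand setting was not given in the sources used here. Counts of 15 libraries per tissue were analysed in R 4.3.3 with edgeR 4.0.16 (TMM factors, quasi-likelihood test), as 1 fit per tissue. Genes needed at least 7 reads in at least 5 hippocampus or 3 lung libraries. Adjusted p-values are Benjamini-Hochberg values in hippocampus and in fits of both tissues and Storey q-values in lung. The tissue comparison and the drug by tissue interaction used the 18 libraries of 9 fetuses with the animal as a block. Log2 CPM for correlations used a prior count of 2. DESeq2 1.42.0, other normalization and filters, the run as a block, age as a covariate, groups by the treatment field and leaving out each library were alternatives. With the run as a block or without CTL212, the gene lists were recounted as an alternative chosen after seeing the data. Symbols were matched for 54.4% of hippocampus and 52.1% of lung identifiers. Members and lists were chosen with earlier results of these data known. Named genes were the members, listed genes called in hippocampus, 13 preset genes, the smallest p of each list and the 10 genes most like the members' mean. SALL1, LAPTM5, BHLHE41, genes next to or overlapping members and the gene most like each member were named outside that rule. The values of 1 listed gene are not reported here. Each library is 1 fetus. The fits were tested on simulated data.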

Additional observations from a re-analysis of the deposited data

Results flagged for a closer look

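In the hippocampus, 21 groups of 5 libraries (7 genes in 3 groups) were tested for a library far from the others with Dixon's ratio, of which chance flags about 1 in 20, and 2 were found. TREM2 in BAC235 was 8.115 CPM, where the other 4 BAC libraries had 2.639 to 3.955 CPM. TREM2 in CEL245 was 6.866 CPM, where the other 4 CEL libraries had 3.726 to 4.426 CPM.

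P2RY12 stood out because the effect of the clinical drug differed between tissues by the interaction test: it was 1.05 higher on the log2 scale in hippocampus than in lung of the same animals (edgeR adjusted p = 0.0851), with the limits on sequencing run and on single animals given with that result.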

How the results depend on the processing

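The P2RY12 and C1QC differences of CEL from CTL kept their direction under all 24 alternatives and their calls under 21, lost with a run term, in run1630 and run0164 alone, and with groups by the treatment field (0.30 and 0.28). Their range over single libraries left out was 0.71 to 1.15 for P2RY12 (highest edgeR adjusted p = 0.1) and 0.62 to 0.82 for C1QC. The tissue calls for P2RY12 and TREM2 held under all 13 alternatives. DESeq2 moved the counts of genes called to 149 (BAC against CTL), 186 (CEL against BAC), 247 (lung Beta-Ac 6 h), 16 (lung clinical drug 5 days) and 40 (lung Beta-Ac 5 days). The run term called 13 genes in CEL against BAC and turned CSF1R to -0.11 in CEL against CTL and P2RY12 to -0.061 in BAC against CTL. In run1630 and run0164 alone, 229 genes were called in CEL against CTL and 18 in BAC against CTL, with CSF1R at -0.10 and P2RY12 at -0.033. Groups by the treatment field swap CEL and BAC, giving 0 and 1366 genes, CSF1R at -0.10 and 0.049 against CTL, and CEL minus BAC values of -0.55 (P2RY12), -0.15 (CSF1R), -0.038 (TREM2) and -0.44 (C1QC). Without a filter, 1 and 2 genes were called in lung at 5 days (clinical drug, Beta-Ac), and fits of only the 2 groups called 19 (Beta-Ac 6 h) and 7 (Beta-Ac 5 days). In the saline animals alone, hippocampus minus lung was 0.041 for CSF1R and -0.17 for C1QC. Without the animal block 3 genes had a Beta-Ac effect that differed between tissues, and without the group term 8 had an age slope. Leaving out 1 library at a time, genes called ranged over 0 to 184 (BAC against CTL), 9 to 211 (lung Beta-Ac 6 h), 0 to 9 (lung clinical drug 5 days), 0 to 2 (lung Beta-Ac 5 days), 0 to 1046 and 0 to 709 (clinical drug and Beta-Ac effects between tissues) and 0 to 96 (age). The same ranges of log2 differences that crossed 0, none of them called, were -0.084 to 0.15 (CSF1R, CEL against CTL), -0.23 to 0.026 (CSF1R, BAC against CTL), -0.15 to 0.37 (TREM2, CEL against BAC), -0.18 to 0.44 (C1QC, lung 4 h), -0.76 to 0.011, -0.23 to 0.37 and -0.23 to 0.31 (P2RY12, CSF1R and C1QC, lung Beta-Ac 6 h), -0.34 to 0.13, -0.15 to 0.46 and -0.14 to 0.40 (the same genes, lung clinical drug 5 days), -0.25 to 0.36, -0.26 to 0.26 and -0.19 to 0.34 (CSF1R, TREM2 and C1QC, lung Beta-Ac 5 days), -0.050 to 0.16 (C1QC between tissues), -0.29 to 0.42 (C1QC, Beta-Ac effect between tissues), and per day of age -0.013 to 0.066 (CSF1R), -0.066 to 0.028 (TREM2) and -0.060 to 0.010 (C1QC). The causes were not tested. No paired analysis was possible because the labels give no shared replicate numbers, other than the animal block of the tissue comparisons. With 57 to 210 TREM2 reads per hippocampus library and 2 to 104 P2RY12 reads per lung library, changes below about the intervals given were not detectable.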
